A study of Mus musculus with 4 samples.

Results

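The genes described here are 42 genes of antioxidant defence: the Nrf2 pathway and the enzymes of glutathione, thioredoxin, NADPH and heme metabolism, together with metallothioneins and iron proteins. They were compared between KO and wild-type (WT) mouse T cells on 4 Affymetrix arrays of 1 colour, with 2 arrays for each genotype. Naive T cells had been isolated from spleen and kept for 3 days under conditions that induce regulatory T cells (Treg cells), the CD4 T cell lineage that depends on the transcription factor Foxp3. Each array was labelled with a numbered source of WT or KO mice. The labels do not give the gene removed in the KO, the strain, the age, the sex or the number of mice behind an array, so p-values rest on array-to-array spread alone, and some of that may be technical. A member was measured where a probe set (a cluster of short probes against a transcript) named that gene alone, and the probe set with the highest mean over the 4 arrays was taken. This held for 37 of the 42 genes, and all 37 passed the filter on dim probe sets. Prdx1 and Ftl1 had probe sets that named them together with other genes, which were not used, and Prdx5, Prdx6 and G6pdx were not analysed here.

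Nrf2, encoded by Nfe2l2, is a transcription factor that Keap1 holds at low level by directing it to degradation. When oxidants or electrophiles modify Keap1, Nrf2 accumulates and activates genes through antioxidant response elements (ARE), while Bach1, a heme-sensing repressor, occupies the same kind of element. Their targets make glutathione, reduce thioredoxin and peroxides, supply NADPH, break down heme and store iron. In T cells, glutathione and thioredoxin support growth after activation, and uptake of iron through the transferrin receptor accompanies proliferation.

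Arrays of the same genotype correlated at 0.979 (WT) and 0.977 (KO), and arrays of different genotype at 0.933 to 0.941, as a description across 27022 probe sets, which do not count as replicates. The T cell label held on all arrays: Cd3g, a chain of the T cell receptor complex, gave signals of 8978 and 8666 in WT and 21527 and 20722 in KO cells. Of 8 tested markers of CD4 T cells and Treg cells, 5 were called higher, 1 lower and 2 not. The lower one was Foxp3, with 2177 and 2033 in WT and 947 and 1100.5 in KO cells, while Il2ra and Ctla4, which Treg cells also express, were higher by 0.99 and 0.97 on the log2 scale. Signals are MAS5 values on a linear scale, all fold changes are on the log2(signal + 16) scale, and a difference is called where the adjusted p of limma lies under 0.05. In such bulk samples, fewer cells of a type and less RNA per cell cannot be told apart.

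The largest rises among the members were those of the metallothionein genes Mt1 and Mt2, followed by Gsr, Srxn1, Hmox1 and Me1, which encode enzymes of glutathione reduction, peroxiredoxin repair, heme breakdown and NADPH supply. Fth1, Gclm, Keap1 and Pgd rose by less, and Gclc and Tfrc fell. In all, 10 of the 37 measured members were called higher in KO cells and 2 lower, and 25 did not pass, so 32.4% were called in either direction, beside 20.3% of all genes. Over all 12547 genes tested by the same rule, 10.5% were called higher and 9.87% lower, against 27% and 5.41% of the members. The members were chosen with earlier results of these data known, so these shares are a description and not a test of the set. The members' median log2 fold change was 0.07, beside -0.03 over all genes, and their median absolute change was 0.20, beside 0.31 over all genes. Most members thus lay closer to 0 than the typical gene, and the rises belonged to a minority. Both KO arrays lay above both WT arrays for 17 members and below them for 8, and the groups overlapped for 12. Of all genes 29.8% had KO above WT and 32.9% had KO below WT in this way.

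**Figure D1:**
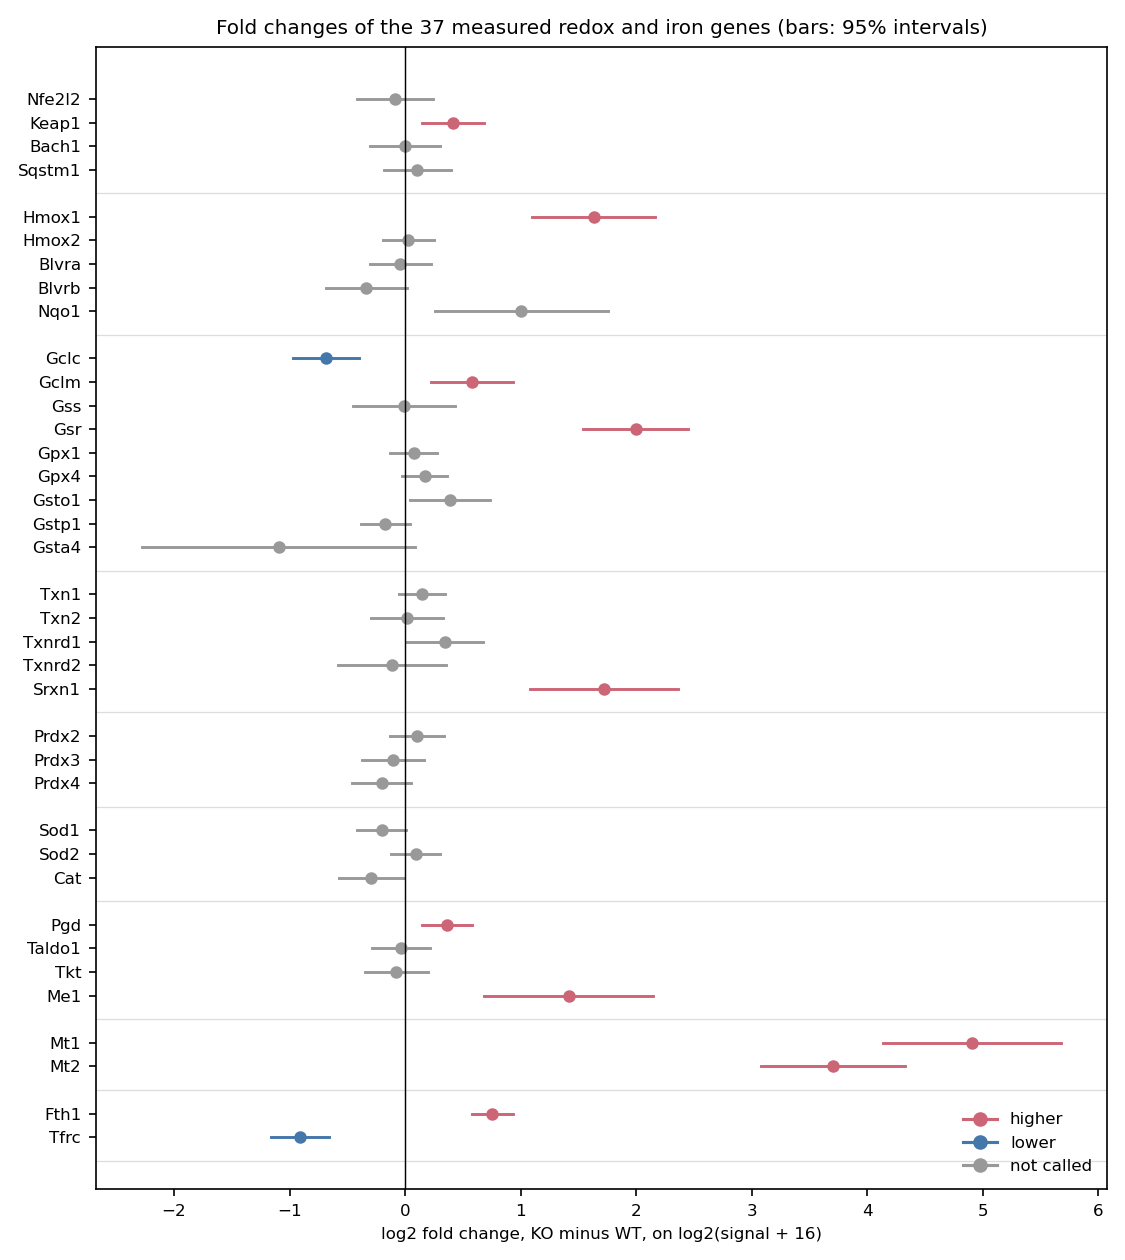
Log2 fold change of KO over WT cells (x axis, on log2(signal + 16)) for each of the 37 measured genes, grouped by role in the order of the text, with points at the estimate and bars for its 95% interval from limma (2 WT and 2 KO arrays). Red marks the 10 genes called higher, blue the 2 called lower and grey the 25 not called; Mt1 and Mt2 stand farthest to the right, at 4.91 and 3.70.

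**Figure D2:**
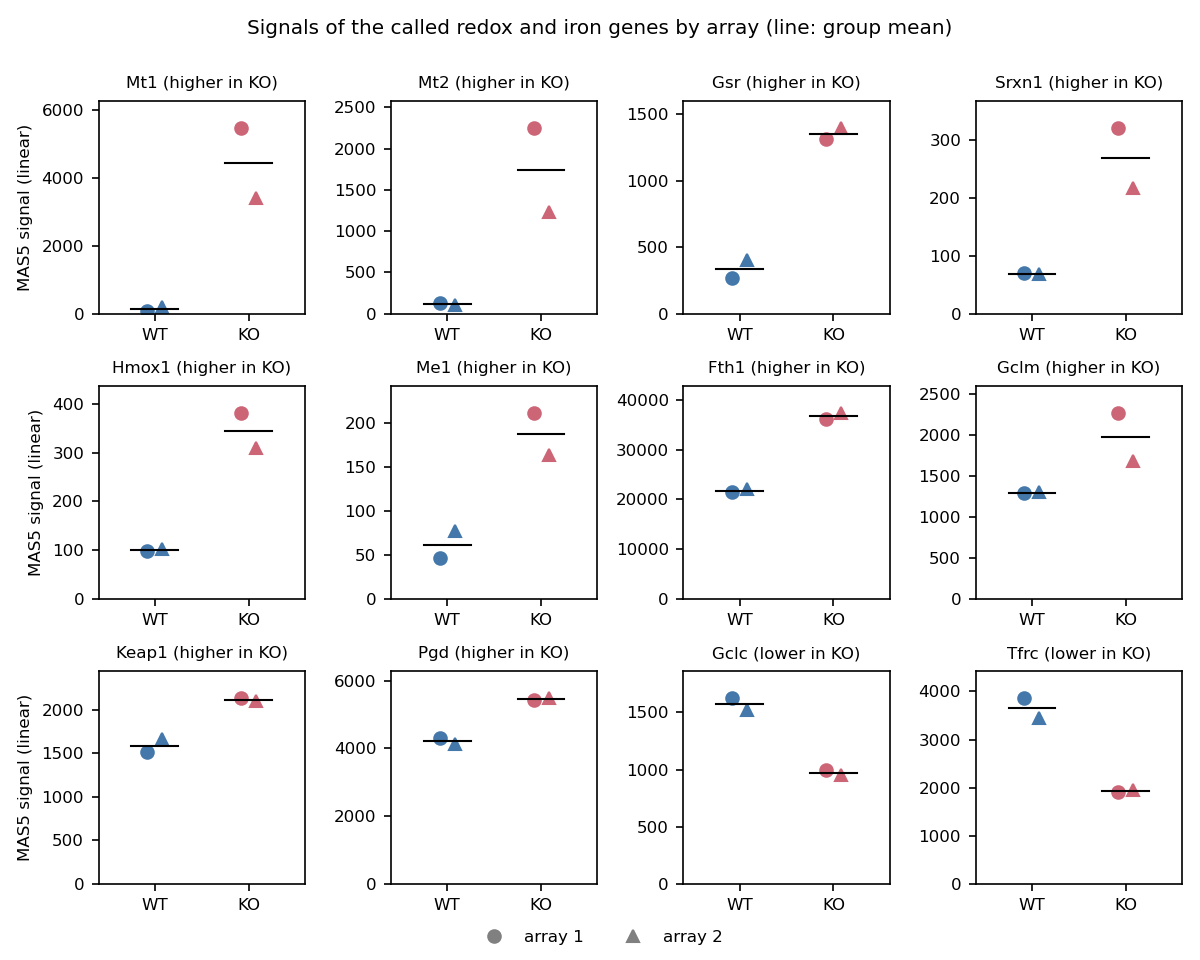
MAS5 signal (linear y axis from 0, a scale of its own in each panel) of the 12 called genes in the 2 WT (blue) and 2 KO (red) arrays, with circles for array 1, triangles for array 2 and a line at each group mean. The groups do not overlap in any panel, and the KO arrays lie far apart for Mt1, Mt2, Srxn1 and Gclm.

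Of the regulators of the pathway, the factors that bind the elements did not pass. Nfe2l2 gave 1229 and 1267 in WT and 1309.6 and 1054.5 in KO cells, so the groups overlapped, with a log2 fold change of -0.09 (95% interval -0.41 to 0.24, adjusted p = 0.736, limma). Bach1 lay at 1306 and 1483 in WT and at 1471 and 1311 in KO cells, a change of -0.003 (-0.31 to 0.30). Its arrays interleaved between the genotypes. Sqstm1, which encodes the autophagy receptor p62 that can bind Keap1, was at 0.11 (-0.18 to 0.39) with overlapping groups. Keap1 was the only regulator of the 4 that was called. Its signals of 1510.1 and 1661 in WT and 2132 and 2098 in KO cells did not overlap, and Keap1 rose 1.33-fold (log2 fold change 0.41 ± 0.12 SE, adjusted p = 0.0429, limma). That call rests close to the threshold. The adjusted p was 0.221 without WT array 1, 0.0972 without WT array 2, 0.102 without KO array 1 and 0.0806 without KO array 2, each with a log2 fold change between 0.35 and 0.48.

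In heme breakdown, the inducible enzyme rose and the constitutive steps did not pass. Hmox1, the inducible heme oxygenase that opens the heme ring and frees its iron, gave 97.2 and 102.7 in WT and 381 and 309 in KO cells. The WT arrays were nearly equal and both KO arrays lay well above them. Hmox1 rose 3.10-fold (1.63 ± 0.23, adjusted p = 0.00225, limma), and it kept its call under all alternatives tried. Hmox2, the constitutive heme oxygenase, lay between 3912 and 4080.1 on all 4 arrays, at 0.03 (-0.19 to 0.25). Both oxygenases make biliverdin, and Blvra and Blvrb encode biliverdin reductases A and B. Blvra was at -0.04 (-0.31 to 0.22) and Blvrb at -0.33 (-0.69 to 0.02, adjusted p = 0.182), the second with both KO arrays below both WT arrays. Nqo1, a quinone reductase widely used as a readout of Nrf2, was dim in all samples. It gave 49.5 and 44.9 in WT and 98.9 and 124 in KO cells, without overlap, and its log2 fold change of 1.01 (0.26 to 1.75) did not pass (adjusted p = 0.0694, limma). It passed only in the fit on the mean over the probe sets of each gene (adjusted p = 0.0461). Nqo1 has 1 tested probe set, so nothing was averaged for it. That fit adjusted over 12547 genes and not over 27022 probe sets.

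The genes of glutathione synthesis split. Glutamate-cysteine ligase, the rate-limiting enzyme of glutathione synthesis, has a catalytic subunit encoded by Gclc and a modifier subunit encoded by Gclm. Gclc gave 1623 and 1519 in WT and 993 and 949 in KO cells, and both KO arrays lay well below both WT arrays. It fell 1.61-fold (log2 fold change -0.68 ± 0.12, adjusted p = 0.00739, limma). Gclm gave 1289.7 and 1300.5 in WT and 2260.5 and 1676 in KO cells, so the WT arrays nearly coincided and KO array 1 stood above KO array 2. It rose 1.497-fold (0.58 ± 0.15, adjusted p = 0.0356). The subunits of 1 enzyme were thus called in opposite directions in the same 4 samples. Gclm was at 0.37 (adjusted p = 0.14) without KO array 1, at 0.58 (0.0942) without WT array 1 and at 0.59 (0.0922) without WT array 2. Gss, which encodes glutathione synthetase and completes the tripeptide, had overlapping groups at -0.01 (-0.45 to 0.43).

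Upstream of Gclm, RefSeq (assembly GRCm38.p6) places the following 180 bases of the plus strand at chr3:122245307-122245486, which end before the first base of the gene. Of the called members with an upstream window, only Gclm and Mt2 held the ARE core in it. The core was searched as TGACNNNGC on both strands, and these bases are shown for the match in Gclm. The capitals mark that match, which lies on the minus strand 134 to 126 bases before the start site that RefSeq's promoter window takes.
Gclm: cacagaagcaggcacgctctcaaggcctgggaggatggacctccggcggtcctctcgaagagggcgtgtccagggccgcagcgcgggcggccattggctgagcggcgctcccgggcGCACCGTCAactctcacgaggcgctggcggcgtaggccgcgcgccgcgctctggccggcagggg

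RefSeq windows were found for 37 of the 42 listed genes, and 33 of these were measured. Hmox1, Gsr, Gclc, Gsta4 and Prdx6 had no window and were not searched, and the first 3 of these were called. In the 250 bases before the start, 8 of the 37 held the ARE core in at least 1 window (21.6%), as did 11.5% of 27025 genes with a window. Besides Gclm and Mt2 these were Nfe2l2, Blvra, Txnrd1 and Sod1, which were not called, and Prdx1 and G6pdx. Of the 8 members called higher that had a window, 2 held it. The letters are a description of this window, and elements farther away were not searched.

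Glutathione is recycled by glutathione reductase, the product of Gsr, which spends NADPH to turn the oxidised form back. Gsr gave 267 and 401 in WT and 1317 and 1394 in KO cells. The WT arrays differed by 0.56 on the log2 scale, and both KO arrays lay over 3 times above the higher of them. Gsr rose 3.99-fold (1.995 ± 0.20, adjusted p = 0.00038, limma). The peroxidases that use glutathione did not pass. Gpx1 lay between 9491 and 10427 on all arrays, at 0.07 (-0.13 to 0.28). Gpx4, which reduces lipid peroxides, was at 0.17 (-0.02 to 0.36, adjusted p = 0.214), with both KO arrays above both WT arrays. Of the transferases that attach glutathione to other molecules, Gsto1 was at 0.39 (0.04 to 0.74, adjusted p = 0.122) and Gstp1 at -0.17 (-0.38 to 0.04). Gsta4 was dim, with 87.6 and 71.2 in WT and 57.8 and 10.8 in KO cells. Its estimate of -1.09 therefore has a wide interval (-2.28 to 0.09, adjusted p = 0.191), and it passed only without KO array 1, at -1.82 (adjusted p = 0.0403). In this role 2 of 9 genes were called higher, 1 lower and 6 not.

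In the thioredoxin system 1 of 5 genes was called. Srxn1 encodes sulfiredoxin, which repairs peroxiredoxins after overoxidation. It gave 70.4 and 67.8 in WT and 321 and 217 in KO cells, with nearly equal WT arrays and KO array 1 above KO array 2. Srxn1 rose 3.29-fold (1.72 ± 0.28, adjusted p = 0.00434, limma). Txn1, the cytosolic thioredoxin, lay at 20891 and 19892 in WT and at 23589 and 21621 in KO cells, at 0.15 (-0.05 to 0.34). Txnrd1, its reductase, gave 2624 and 2239.8 in WT and 3487 and 2727 in KO cells, which do not overlap, at 0.35 (0.01 to 0.68, adjusted p = 0.144). It passed only without KO array 2, at 0.52 (adjusted p = 0.0345), and its other probe sets, neither of them called, lay at 0.74 and 0.52. The mitochondrial counterparts Txn2 (0.02, -0.29 to 0.33) and Txnrd2 (-0.11, -0.58 to 0.36) had overlapping groups. The other probe sets of Txnrd2 were dimmer and not called. They lay at 0.54, 0.26 and 0.61, each with both KO arrays above both WT arrays.

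The peroxiredoxins are abundant peroxidases that thioredoxin keeps reduced, and the 3 that were measured did not pass. Prdx2, a cytosolic form, was at 0.10 (-0.13 to 0.33) with overlapping groups. Prdx3, the mitochondrial form, was at -0.11 (-0.38 to 0.16), also with overlap. Prdx4, the form of the endoplasmic reticulum, was at -0.20 (-0.46 to 0.05), with both KO arrays below both WT arrays. Superoxide dismutases turn superoxide into hydrogen peroxide, which catalase breaks down. Sod1, the cytosolic dismutase, gave 14982 and 15348 in WT and 12369 and 14042 in KO cells, at -0.20 (-0.42 to 0.01, adjusted p = 0.18, limma). Without KO array 2 it was at -0.29 and passed (adjusted p = 0.0316), as it did with the mean over its probe sets, at -0.42 (0.0189). Sod2, the mitochondrial dismutase, lay between 4831 and 5278 on all arrays, at 0.09 (-0.12 to 0.31). Cat gave 4898 and 4233 in WT and 3416 and 4049 in KO cells, at -0.29 (-0.57 to -0.01, adjusted p = 0.149), with KO array 2 close under the WT arrays. It passed with the mean over its probe sets, at -0.43 (adjusted p = 0.0391). It also passed where probe sets with names ending in _x_at, _s_at or _a_at were left out, at -0.58 (0.0239).

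NADPH is the cofactor of both reductases, and of 4 measured genes of its supply and of the pentose phosphate pathway 2 rose. Me1, the cytosolic malic enzyme, which makes NADPH from malate, gave 45.8 and 76.4 in WT and 210.5 and 164 in KO cells. It was dim in WT cells, both KO arrays lay above them, and it rose 2.67-fold (1.42 ± 0.32, adjusted p = 0.019, limma). Pgd, the dehydrogenase of 6-phosphogluconate in the oxidative pentose phosphate pathway, gave 4305 and 4135 in WT and 5419 and 5470.2 in KO cells. The arrays of each genotype were close together, and Pgd rose 1.29-fold (0.37 ± 0.09, adjusted p = 0.0316). Taldo1 and Tkt, the enzymes of the non-oxidative branch, had overlapping groups at -0.03 (-0.29 to 0.22) and -0.08 (-0.35 to 0.20). Both calls depended on single arrays. Me1 was at 1.13 (adjusted p = 0.067) without WT array 1 and at 1.25 (0.0808) without KO array 1. Pgd was at 0.40 (adjusted p = 0.118) without WT array 1, at 0.34 (0.198) without WT array 2 and at 0.36 (0.0501) without KO array 2.

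The metallothioneins are small cysteine-rich proteins that bind zinc and copper and scavenge oxidants, and their genes are induced by zinc through the factor Mtf1. Mt1 gave 83.5 and 191.7 in WT and 5444 and 3391 in KO cells. Both KO arrays were more than 10 times as bright as either WT array, and the arrays of each genotype differed, with WT array 2 above WT array 1 and KO array 1 above KO array 2. Mt1 rose 30.0-fold (4.91 ± 0.34, 95% interval 4.14 to 5.68, adjusted p = 6.24e-05, limma). Mt2 gave 125.6 and 101 in WT and 2244 and 1232 in KO cells, again with KO array 1 on top, by 0.86 on the log2 scale. Mt2 rose 13.0-fold (3.70 ± 0.27, 3.08 to 4.33, adjusted p = 8.7e-05). In the RefSeq gene table they lie on 1 chromosome with 0 protein-coding genes between them. Mt1 and Mt2 are close relatives in sequence, and the name of the Mt1 probe set marks it as one that can match more than 1 transcript, so part of either signal may be shared. Leaving out single arrays moved the log2 fold change of Mt1 between 4.38 and 5.44.

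The 250 bases of the plus strand before the start of Mt2, at chr8:94172368-94172617 in GRCm38.p6 (RefSeq), are shown because they hold 3 matches to the core of the metal response element (MRE), the site that Mtf1 binds. The core was searched as TGCACNC and TGCGCNC on both strands, and 1.46% of the 27025 genes held at least 3 matches in such a window, while 23.8% held at least 1, as did 24.2% of the measured members with a window. Of the 8 called higher with a window 5 held it (Gclm, Srxn1, Pgd, Mt1 and Mt2), as did Tfrc, which was called lower. The window of Mt1 lies inside the gene as the RefSeq gene table places it. Of the Gclm window only 180 bases lie before the gene in that table. Capitals mark the MRE cores, which begin 223, 128 and 50 bases before the start, the last on the minus strand. The longer run of capitals, from 79 to 71 bases before the start, is a match to the ARE core, and it contains TGACTCA, the site of AP-1 factors, which 5.16% of genes hold in either orientation of TGACTCA or TGAGTCA.
Mt2: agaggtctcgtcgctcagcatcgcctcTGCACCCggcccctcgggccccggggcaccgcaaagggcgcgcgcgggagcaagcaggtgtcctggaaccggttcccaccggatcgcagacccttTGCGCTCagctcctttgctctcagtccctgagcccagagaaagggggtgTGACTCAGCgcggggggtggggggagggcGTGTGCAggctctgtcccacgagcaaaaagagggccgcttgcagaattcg

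Iron genes moved in opposite directions. Fth1, the heavy chain of ferritin, which oxidises and stores iron, gave 21451 and 22117 in WT and 36262 and 37327 in KO cells. The arrays of each genotype nearly coincided, and Fth1 rose 1.69-fold (0.76 ± 0.08, adjusted p = 0.000443, limma). Tfrc, the transferrin receptor, which brings iron into the cell, gave 3854 and 3453 in WT and 1916 and 1958 in KO cells. Both KO arrays lay well below both WT arrays, and Tfrc fell 1.88-fold (-0.91 ± 0.11, adjusted p = 0.00104). Both genes carry iron-responsive elements in their transcripts. The iron regulatory proteins that bind these elements control the stability of the Tfrc transcript and the translation of Fth1, and translation was not measured here.

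Several probe sets were tested for 25 members, and for 0 of these genes did 1 call point up and another down. Second probe sets of Fth1 (0.83 ± 0.10, adjusted p = 0.000883, limma), Gclc (-0.56 ± 0.14, 0.0269), Gsr (0.70 ± 0.17, 0.0264) and Pgd (0.48 ± 0.12, 0.0273) were called in the same direction as the ones used, and Pgd had 2 more that were not called. For Gsr the second probe set gave a far smaller rise than the 1.995 of the first. The other probe sets of Keap1, Gclm, Srxn1, Me1 and Tfrc were not called. For Srxn1 they lay at 1.43 and -0.03, both from signals of 131 or less. Of Mt1 a second probe set with signals under 60 on all arrays was not tested. Among the members not called, 3 had another probe set called lower, each dimmer than the one used: Sod1 at -0.81 ± 0.16 (adjusted p = 0.0108), Cat at -0.58 ± 0.14 (0.0239) and Sod2 at -0.50 ± 0.15 (0.0497). The other probe sets of Sod1 and Sod2 were not called, so these genes have no uniform value on the array.

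**Figure D3:**
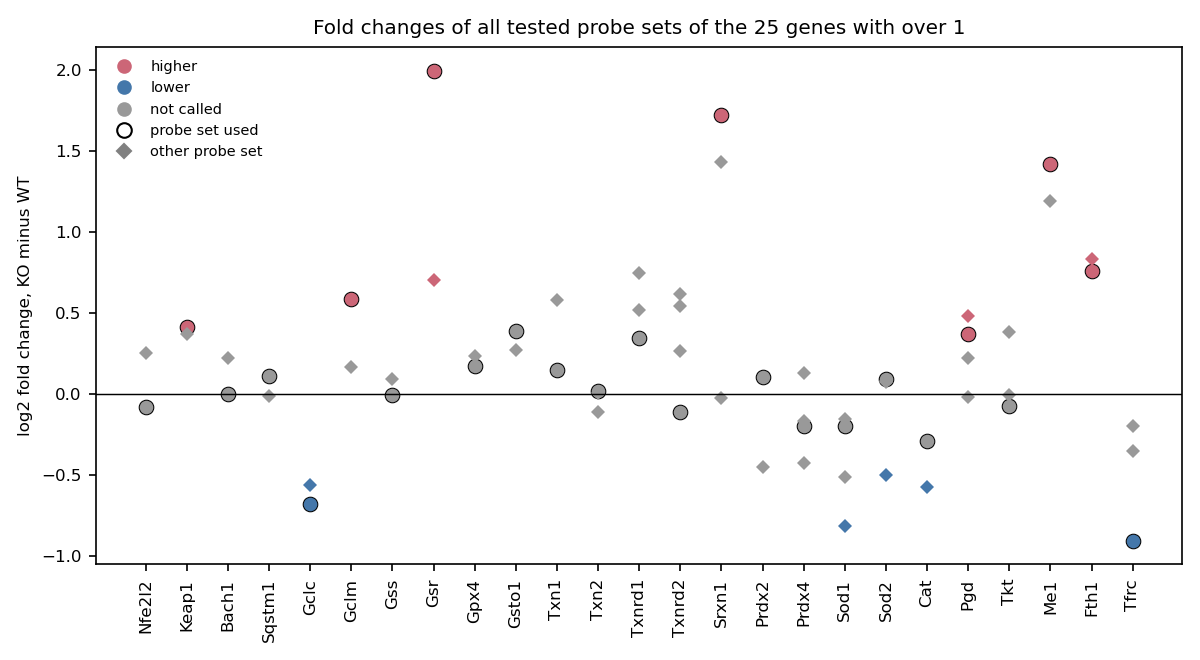
Log2 fold change of KO over WT cells (y axis) for every tested probe set of the 25 members with over 1, where outlined circles are the probe set used for the gene, diamonds are its other probe sets and colour gives the call. No gene has both a red and a blue point, and Sod1, Sod2 and Cat each have 1 blue diamond beside a grey circle.

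Genes of the same pathways outside the 42 were taken from 9 lists, and 123 of their 151 genes were tested. Of these 24 were called higher, 13 lower and 86 not, with a median log2 fold change of 0.04. Over all 12547 genes tested 10.5% were called higher and 9.87% lower. The share of rises among the related genes was above that of all genes, and the share of falls was close to it. These lists too were chosen with earlier results of these data known. Several single lists lay near the shares of all genes. The other glutathione genes held the most rises, with 7 of 23 higher and 1 lower. Gpx8, a peroxidase of the endoplasmic reticulum, gave 1.76 and 1.98 in WT and 481 and 386 in KO cells and was called (adjusted p = 6.89e-05, limma). Its WT signals are so low that the size of its log2 difference is set by the added 16, so none is given, and it passed the filter through the KO arrays. Mgst1, a membrane-bound transferase, gave 15.3 and 34.0 in WT and 288 and 140 in KO cells (2.46 ± 0.42). It too was dim in WT cells and passed the filter through the KO arrays. The added 16 therefore weighs on its size, and the count of 7 rises is not independent of that filter. Glrx, which encodes glutaredoxin and removes glutathione from proteins, was also among the rises (1.88 ± 0.14). Ggct, an enzyme of glutathione breakdown, fell (-0.67 ± 0.17). Slc7a11, the transporter that brings in cystine for glutathione synthesis, gave 23.8 and 59.5 in WT and 187 and 137 in KO cells (1.69 ± 0.39, adjusted p = 0.0212), and was added after its values were seen.

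Among partners and other targets of Nrf2, Akr1b8, an aldo-keto reductase (1.19 ± 0.26), and the exporter gene Abcc1 (0.67 ± 0.11) rose, Ephx1, a microsomal epoxide hydrolase, fell (-1.91 ± 0.13, adjusted p = 5.68e-05, limma), and 11 of 14 did not pass. Of 21 other thioredoxin, repair and selenium genes 3 rose and 3 fell. Sesn2, a stress-induced sestrin, rose (0.73 ± 0.20), as did the thioredoxin relatives Txndc9 (0.70 ± 0.10) and Txndc17 (0.69 ± 0.10). Its relative Sesn1 fell (-1.67 ± 0.24), and so did Selenop, a selenium carrier (-0.93 ± 0.12), and Txnip, the inhibitor of thioredoxin (-0.58 ± 0.09). Of 13 further NADPH genes, H6pd, which makes NADPH in the endoplasmic reticulum, rose (0.62 ± 0.17), and the mitochondrial enzymes Mthfd2 (-0.81 ± 0.14) and Idh2 (-0.78 ± 0.14) fell. Among 6 genes of oxidant production, Ncf4, a subunit of the phagocyte oxidase, rose (0.36 ± 0.10), and the other 5 did not pass.

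Iron transport was mostly lower where it was called, with 4 of 14 genes lower and 1 higher. Slc25a37 and Slc25a28, the mitoferrins that carry iron into mitochondria, fell (-0.94 ± 0.15 and -0.70 ± 0.15), and so did Slc11a2, which carries iron out of endosomes (-0.74 ± 0.17). The ferritin receptor gene Ncoa4 was the other one (-0.48 ± 0.10), and Slc39a14, a carrier of iron and zinc, rose (0.60 ± 0.16). In heme synthesis and iron-sulfur assembly 4 of 14 rose, among them Hebp1, a heme-binding protein (2.25 ± 0.31), Ppox (1.06 ± 0.20) and Cpox (1.04 ± 0.27), enzymes of late heme synthesis, and Urod, which acts just before Cpox, fell (-0.42 ± 0.10). The list of metallothionein regulators and zinc transporters held 3 rises among 10 genes, those of Slc30a4 (1.21 ± 0.18), which moves zinc out of the cytosol, and of Slc39a8 (1.01 ± 0.15) and Slc39a1 (0.51 ± 0.11), which move it in. Mtf1 itself was not called, at 0.22 ± 0.17 (adjusted p = 0.405, limma). Among 8 genes of lipid peroxidation, Alox5, a lipoxygenase (2.47 ± 0.34), and Lpcat3 (0.69 ± 0.13), which loads polyunsaturated fatty acids into phospholipids, rose, and the polyamine enzyme gene Sat1 fell (-0.68 ± 0.14).

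**Figure D4:**
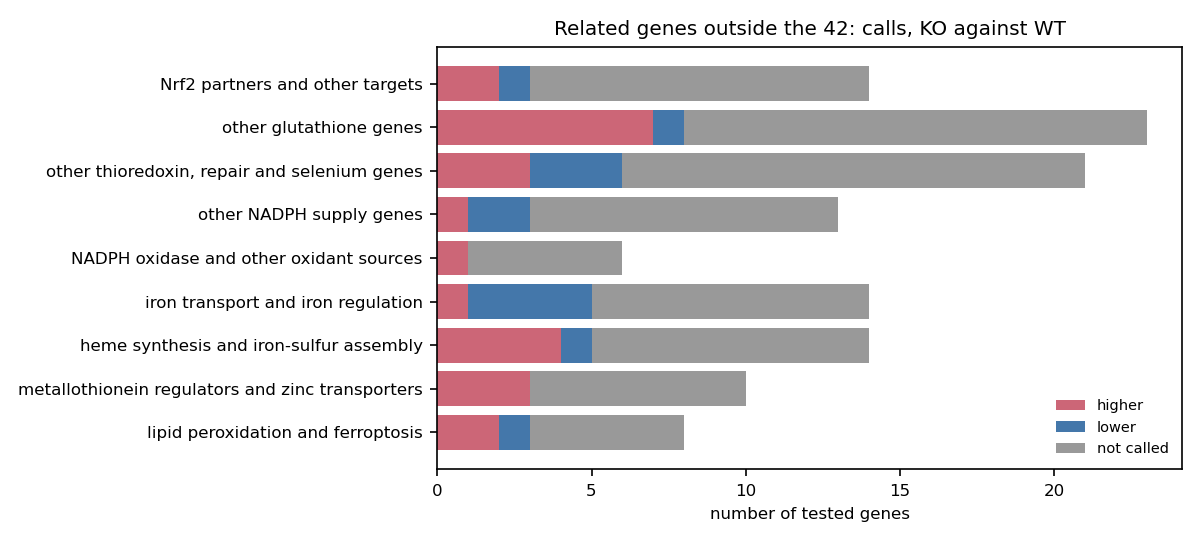
Number of tested genes (x axis) in each of the 9 lists of related genes that were called higher (red), called lower (blue) or not called (grey) in KO against WT cells. The other glutathione genes have 7 rises among 23 genes and the iron transport genes 4 falls among 14.

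Markers of other cell types moved with the genotype too. Of 12 tested markers of mast cells and basophils 10 were called higher, and the summed signal of the list was 911 and 1444 in WT and 47934 and 33158 in KO cells. Of 6 tested neutrophil markers 3 rose (summed 214 and 281 in WT, 3808 and 1786 in KO), of 6 of macrophages and monocytes 4 (482 and 701 in WT, 1739 and 1511 in KO), and of 2 of eosinophils both (22.1 and 87.3 in WT, 5447 and 2048 in KO). The NK list had 3 of 3 higher, the CD8 list 2 of 4, and the B and plasma cell list 2 of 5. Over all genes 10.5% were called higher and 9.87% lower. Several of these markers, among them Prg2, Epx, Klrc1 and Cpa3, were dim in WT cells and passed the filter only through the KO arrays. Their calls were therefore not independent of that filter. Siglecf and Ccr3 of the eosinophil list and Ncr1 and Klra8 of the NK list were too dim to be tested. Markers of erythroid cells (0 of 3) and of dendritic cells (0 of 3) were not called, and Hba-a1, an alpha globin gene, lay at or under 12 on all arrays. Among the neutrophil markers, S100a8 gave 38.4 and 48.8 in WT and 1415 and 768 in KO cells, and Mpo lay under 46 on all arrays. Among the macrophage and monocyte markers, Cd14 gave 5.88 and 109 in WT and 581 and 470.3 in KO cells, and Csf1r lay between 111 and 179 on all arrays. On KO array 1 the mast cell, neutrophil and eosinophil sums were higher than on KO array 2. Of the 10 members called higher, 7 were higher on KO array 1 too (Mt1, Mt2, Srxn1, Gclm, Me1, Hmox1 and, by 0.02 on the log2 scale, Keap1), and Gsr, Fth1 and Pgd were lower on it, by differences of -0.08, -0.04 and -0.01. Metallothioneins, Hmox1 and Fth1 are expressed by myeloid cells as well as by T cells, and the part of such cells in these rises was not tested.

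Across the 14 alternatives of scaling, filter, test and arrays, Gsr, Hmox1 and Mt2 were called in all 14, and Mt1 in the 13 that gave it a value. Without the intensity trend in the variance, 5 members were called higher (Gsr, Hmox1, Mt1, Mt2 and Srxn1) and 0 lower. Fth1 was then at an adjusted p of 0.0666, Tfrc at 0.0555 and Gclc at 0.0799 (limma), and these 3 kept their calls otherwise, wherever they had a value. Srxn1 lost its call only where all probe sets with names ending in _x_at, _s_at or _a_at were left out, at 1.43 (adjusted p = 0.114). With the mean over all its probe sets, Tfrc was at -0.49 and Srxn1 at 1.04, both still called.

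**Figure D5:**
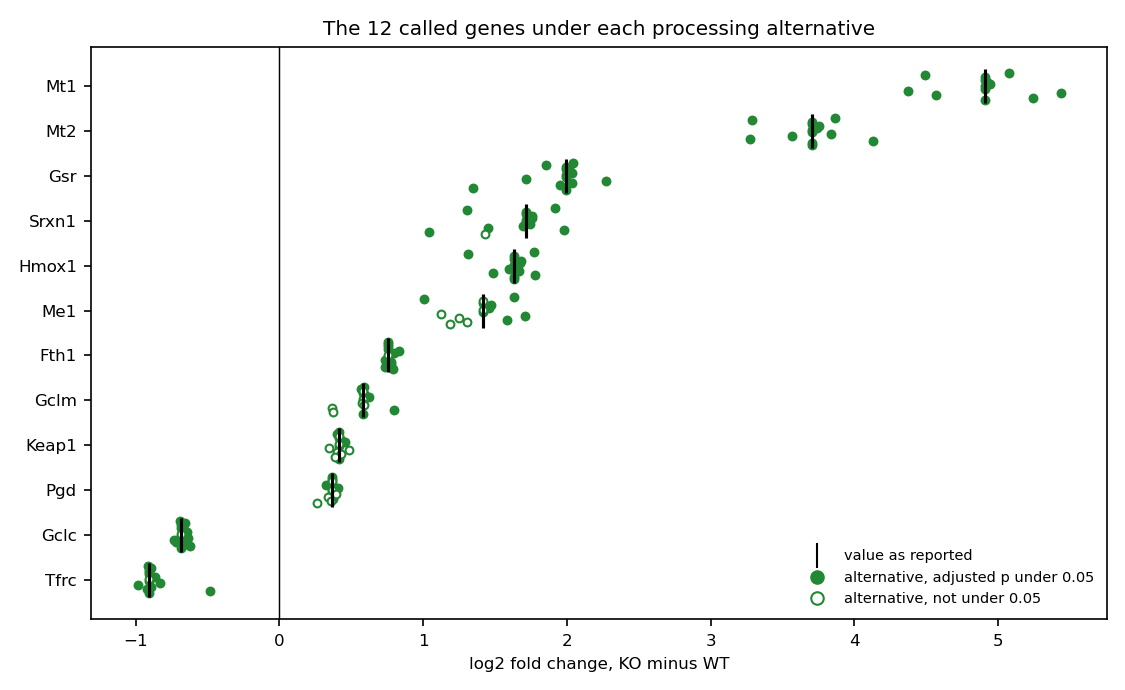
Log2 fold change of KO over WT cells (x axis) of the 12 called genes as reported (black bars) and under each processing alternative (dots, filled where the adjusted p was under 0.05). Every dot lies on the same side of 0 as its bar, all dots of Mt1, Mt2, Gsr and Hmox1 are filled, and Keap1, Pgd, Gclm and Me1 have several open dots.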

How the data were processed

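RNA of 2 WT and 2 KO samples was analysed. Per the labels' protocols, biotin-labelled cRNA was made from 6 micrograms of Trizol-extracted RNA. Each deposited value is the intensity of a probe set on a linear scale. Per the submitters' processing notes it comes from MAS5, of a version not given in the sources used here. All arrays had an equal mean once 2% of values were trimmed from either tail, so a difference in total RNA between groups is not visible. Gene names came from the platform annotation, through gene IDs of RefSeq assembly GRCm38.p6.

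Of 45101 probe sets, 64 controls and then the dimmest 40% were left out. KO was compared with WT on log2(signal + 16) in limma 3.58.1 (R 4.3.3), with lmFit, eBayes and an intensity trend, two-sided, adjusted by Benjamini-Hochberg over 27022 probe sets at 0.05. Values after ± are standard errors. The 2 residual degrees of freedom were joined by 6.41 prior ones. With 2 arrays a group, the smallest p of an exact permutation would be 0.333. The number of arrays limits the precision.

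All members are named, and of each related list up to 3 called genes in each direction. Ncoa4 and Slc7a11 were named beyond that rule after their values were seen. The members and lists were chosen with earlier results of these data known. The alternatives were other pseudocounts (1 or 64), filters, scalings and variance models, the replicate block, other choices of probe set, and leaving out each array.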

Additional observations from a re-analysis of the deposited data

How the results depend on the processing

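With no filter on dim probe sets 6 members were called higher. Without the intensity trend it was 5 higher and 0 lower, with 651 genes and 1183 probe sets called in all, against 2552 and 4608 as reported. With the mean over the probe sets of each gene 4 members were called lower (Cat, Gclc, Sod1 and Tfrc) and 7 higher. Nqo1 was gained there and Gclm, Keap1, Me1 and Pgd were lost. Without probe sets with names ending in _x_at, _s_at or _a_at, 5 were called higher, among 27 members with a tested probe set. Leaving out 1 array at a time gave 6 to 9 members called higher and 2 to 3 lower, 1646 to 2336 genes and 2786 to 4387 probe sets. The array number was shared between the genotypes, and deviations of same-numbered arrays correlated at 0.01 over 27022 probe sets. With 2 arrays a genotype this cannot decide whether the numbers pair the samples. With the replicate block 10 members were called higher and 2 lower, and 2913 genes in all. No called member changed direction under any alternative run. Of the 25 members not called, 20 were called under none of them, and 11 changed sign under at least 1 alternative without being called. Among the members the standard error was widest for Gsta4 (0.52), followed by Mt1 (0.34), Nqo1 (0.33), Me1 (0.32), Srxn1 (0.28) and Mt2 (0.27).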
